A study of Mus musculus with 6 samples.

Results

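Ribosomal protein pseudogenes are copies of the genes for the proteins of the cytosolic ribosome. They were taken here as the genes whose symbol starts with Rpl or Rps and contains -ps and whose normalized read count averaged 20 or more over the 6 libraries. Of 274 genes with such a symbol, 165 passed and 109 did not, and 12 of the latter had 0 reads in every library. The deposited table holds 47729 genes, of which 19255 passed the same threshold of 20 and were tested. Just inside the threshold were *Rpl31-ps18* (mean 20.8) and *Rpl23a-ps5* (20.9), and just outside were *Rpl28-ps2* (19.9), *Rps29-ps* (19.8) and *Rpl21-ps6* (19.5).

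The libraries came from 3 Control and 3 LS1 mice of the Longshanks experiment, all 14 days old, from different families of 1 generation. LS1 mice were bred for long tibiae relative to body mass, and Control mice were bred at random from the same outbred stock (ICR, also called CD-1). RNA of both proximal tibial epiphyses of each mouse was pooled, so a library holds cartilage, bone and marrow together, and fewer cells of a type cannot be told apart from less RNA per cell. Polyadenylated RNA was read as short paired ends of 35 to 50 bases, mapped to GRCm38 and counted per gene by the authors. LS1 was represented by 1 of the 2 selected lines, and neither the sex of the mice nor the strand setting of the counting was given in the sources used here. Library totals were 68803249 to 76581954 reads in Control and 82227711 to 88745366 in LS1, and every one of the 165 pseudogenes had at least 1 read in each library. Beside the results below stand the markers of the tissue. The summed values of the 8 chondrocyte markers were 2067009 to 2417068 in Control and 2666741 to 3239767 in LS1, and those of the 8 erythroid markers were 1706186 to 2238559 and 908531 to 1121008. The 6 B cell markers summed to 36354 to 40156 and 22907 to 36601, ranges that overlapped slightly. For the osteoblast, osteoclast, neutrophil, macrophage and muscle markers the summed ranges of the groups overlapped as well. Their median log2 fold changes were 0.05, 0.03, 0.31, 0.19 and -0.76, in that order. No marker of these lists was at 0 in a library, and 2 erythroid markers passed the test described below. The part of this difference in tissue in the results was not tested.

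Each ribosomal protein of the mouse is as a rule made from a single gene with introns. Its abundant mRNA has often been copied back into the genome by the reverse transcriptase of LINE elements, which leaves an intronless copy with no promoter of its own, called a processed pseudogene. Ribosomal protein genes have left more such copies than most gene families, and the young ones differ from their parent gene at so few bases that a short read can often be placed on either. A read with no differing base carries no information on which of the copies was transcribed.

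The 165 pseudogenes comprised 97 copies of large subunit (Rpl) genes and 68 copies of small subunit (Rps) genes, on 20 chromosomes, with 14 on X and 0 on Y. GENCODE M21 lists 155 as processed pseudogenes, 5 as transcribed processed pseudogenes (*Rps2-ps10*, *Rps15a-ps4*, *Rpl10-ps1*, *Rps26-ps1* and *Rps2-ps9*) and 5 as protein-coding (*Rpl36a-ps1*, *Rpl9-ps6*, *Rpl10-ps3*, *Rps12-ps3* and *Rpl9-ps1*). The part of the symbol before -ps named a gene of the table in 164 cases, with 54 different parents. *Rpl48-ps1* had none and matched no ribosomal protein mRNA over a long stretch. In further cases the symbol and the sequence disagreed. *Rpl18-ps1* did not align with *Rpl18* over any long stretch, and *Rpl36a-ps3* matched *Rpl36al* better than *Rpl36a*.

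Aligned to the mRNA of the parent, 163 pseudogenes had a median identity of 98.0%, with the lowest at 83.6%. Identity was 100% in 13, at least 99% in 47 and under 95% in 42. The median number of differing bases was 9. An open reading frame as long as that of the parent was present in 91 of 163, counted to the end of the annotated copy where that end left out the stop codon. The pseudogenes with a full frame had a median normalized count of 192 and a median identity of 98.9%, and the 72 with a shorter frame had 143 and 95.6%. Of the 31 pseudogenes with a mean count of 1000 or more that could be compared, 24 had a full frame and 7 a shorter one.

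CpG sites are often methylated in mammalian DNA, and a methylated C is known to mutate readily to T, which turns CpG into TpG or CpA. Over the coding bases of 162 aligned pairs, 2261 bases differed, and 71.4% of these were transitions. Bases in a CpG of the parent made up 7.48% of the bases compared and 31.2% of the differences. Put the other way, 11.3% of CpG bases differed against 2.01% of the other bases. These are counts over reference sequences that share parents, and carry no test.

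The windows printed here and further below are 60 bases of the parent's coding sequence with the same stretch of the pseudogene. They were read from the GENCODE transcripts on GRCm38. Each was picked as the gap-free stretch with the most differing bases, so it is not typical of the copy. Capitals mark the bases that differ. Positions in the parent count from 1 at the A of its start codon, and each substitution gives the base of the parent, the position and the base of the pseudogene. The first set shows *Rps15-ps2* and *Rpl10a-ps1*, which are among the 12 pseudogenes with the highest counts. *Rps15-ps2* (chr6:58017506-58017943, plus strand) differs from *Rps15* at 10 coding bases, and the window from coding position 175 to 234 holds 5 of them (G187A, A192G, A201G, T219C and G234A). It lies at chr6:58017680-58017739. *Rpl10a-ps1* (chr1:64993951-64994604, minus strand) does not differ from *Rpl10a* at any base, and its first 60 bases are at chr1:64994545-64994604.
Rps15: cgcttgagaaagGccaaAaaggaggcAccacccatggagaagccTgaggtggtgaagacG
Rps15-ps2: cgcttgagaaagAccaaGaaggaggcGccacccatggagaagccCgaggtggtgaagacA
Rpl10a: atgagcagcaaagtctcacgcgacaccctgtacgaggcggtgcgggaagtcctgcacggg
Rpl10a-ps1: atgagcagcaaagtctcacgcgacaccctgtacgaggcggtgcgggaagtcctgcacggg

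The second set comes from copies that held more reads than their parent and yet differ from it by very little. *Rpl23a-ps3* differs at A116T alone (window chr14:34170740-34170799, plus strand), *Rpl19-ps11* at G191A alone, inside a CpG (chr8:19493096-19493155, plus strand), *Rps12-ps9* at C78T and C117G (chr8:123206690-123206749, plus strand), and *Rps2-ps13* at 7 bases, of which C444T and C453A lie in the window (chrX:52899006-52899065, plus strand).
Rpl23a: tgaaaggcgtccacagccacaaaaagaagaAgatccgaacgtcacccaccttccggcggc
Rpl23a-ps3: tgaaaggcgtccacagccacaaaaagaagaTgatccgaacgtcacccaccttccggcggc
Rpl19: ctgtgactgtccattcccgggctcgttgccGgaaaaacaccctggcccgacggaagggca
Rpl19-ps11: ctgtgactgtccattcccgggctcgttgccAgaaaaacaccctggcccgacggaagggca
Rps12: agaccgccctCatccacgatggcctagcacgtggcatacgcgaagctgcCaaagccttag
Rps12-ps9: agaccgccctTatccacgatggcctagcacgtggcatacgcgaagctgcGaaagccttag
Rps2: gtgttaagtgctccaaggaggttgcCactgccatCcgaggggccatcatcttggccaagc
Rps2-ps13: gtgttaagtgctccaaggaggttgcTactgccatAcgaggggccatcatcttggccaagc

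How far such reads could be told apart was measured by cutting each pseudogene into windows of 50 bases, the longest read length of the study. Shorter reads and the pairing of reads did not enter this measure. Windows were looked up in annotated transcripts only, not in the rest of the genome. A median of 49.0% of the windows of a pseudogene occurred in no transcript of another gene, and a median of 34.5% occurred in its own parent. In 19 pseudogenes no window was their own, and in 12 of these every window occurred in the parent. At the other end, 10 pseudogenes shared no window of 50 bases with the gene in their symbol.

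The pseudogenes held 0.137% to 0.249% of all reads of a library, and the 82 ribosomal protein genes held 1.59% to 2.54%. Of the reads of pseudogenes and genes together, the pseudogenes took 8.90%, 8.22% and 8.93% in Control replicates 1 to 3 and 9.61%, 7.94% and 7.75% in the LS1 replicates. The groups overlapped in this share. The reads were concentrated, since the 12 pseudogenes with the highest counts held 55.4% of them, 31 pseudogenes had a mean of 1000 or more and 68 had a mean under 100.

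Set against the parent, the share of the pseudogene in the reads of the pair had a median of 3.86% over 164 pairs. The share was under 1% in 36 pairs, from 1% to 10% in 76, from 10% to 50% in 39 and 50% or more in 13. In 136 other pairs of the table with -ps in the symbol, the median share was 1.88%. In 14 pairs the mean count of the pseudogene exceeded that of the parent, and 13 of these also did so per kilobase of mRNA. They belonged to 8 parents, with a median identity of 99.5%, and 11 of the 14 had a full reading frame. Of the windows of 50 bases in the mRNA of those 8 parents, only 9.89% to 21.3% occurred in no other gene.

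**Figure D1:**
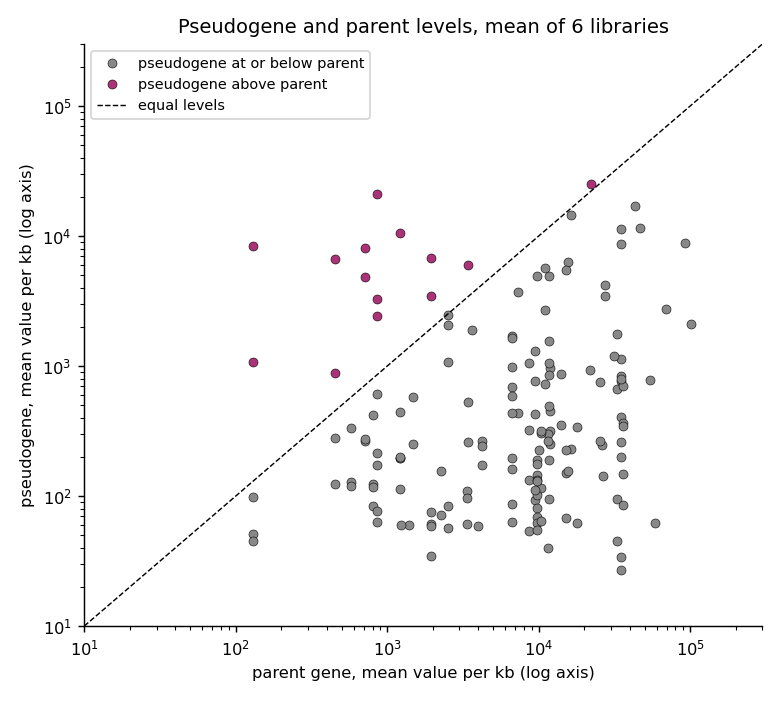
Mean normalized count per kilobase of mRNA over the 6 libraries for 164 pairs, with the parent gene on the x axis and the pseudogene on the y axis, both logarithmic. Points in purple, above the dashed line of equal levels, are the 14 pseudogenes with a higher level per kilobase than their parent, among them *Rps12-ps9* (20905 against 857), *Rpl23a-ps3* (8388 against 129) and *Rpl39-ps* (24958 against 22052).

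In 8 families the pseudogenes together had more reads than the parent. Summed over its pseudogenes, *Rpl23a* had 98.2% of the reads of the family on pseudogenes, *Rps12* 95.8%, *Rpl36* 94.3%, *Rpl17* 92.8%, *Rpl19* 87.8%, *Rps2* 83.5%, *Rpl9* 67.7% and *Rps13* 63.1%. *Rpl23a*, whose protein lines the exit of the peptide tunnel, had 57.5, 68.7 and 104 normalized counts in Control and 49.5, 46.1 and 108 in LS1. *Rpl23a-ps3*, which differs from it at a single base, had 4453, 2810.3 and 2368 in Control and 6275, 2556 and 5091 in LS1, 95.8% to 99.2% of the pair in every library. The groups overlapped for both.

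*Rps12* and *Rpl19* had a single leading copy in the same way. *Rps12-ps9* had 13647, 6838 and 10978 counts in Control and 9359, 4299 and 4926 in LS1, while *Rps12* lay between 375 and 480.3 in the 6 libraries. *Rpl19-ps11* had 6514, 6278 and 8689 in Control and 7908, 4695 and 3028 in LS1, while *Rpl19* lay between 745 and 1238. Both copies carry a full reading frame, and both had overlapping groups. Their log2 fold changes were -0.79 ± 0.36 and -0.55 ± 0.33 (SE), with limma adjusted p-values of 0.415 and 0.521. *Rpl17-ps8* (92.6% ± 0.949 of the pair in Control and 90.1% ± 3.65 in LS1, SD, n = 3) and *Rps13-ps1* (53.3% ± 5.87 and 67.5% ± 11.9) were further examples. The groups overlapped in both shares.

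Identity to the parent and share of the reads went together only loosely. Across 163 pairs the correlation of identity with the mean share was weak (Spearman's rho 0.28, Pearson's r 0.22), and the pairs share libraries and often a parent. The 12 pseudogenes with every window in the parent had shares from 0.333% (*Rpl15-ps3*) to 41.6% (*Rpl10a-ps1*), with a median of 9.15%. The 10 with no window in the parent had shares from 0.416% (*Rpl10-ps4*) to 82.4% (*Rpl23a-ps4*), with a median of 2.63%. *Rpl23a-ps4* is 89.4% identical to *Rpl23a*, and 99.8% of its windows of 50 bases occurred in no other gene. Its normalized counts were 999, 171 and 184 in Control and 654, 326 and 575 in LS1. The share of *Rpl23a-ps4* is set against a low count of *Rpl23a*, with a mean of 72.3. Of the reads on the 5 pseudogenes of *Rpl23a*, 87.2% were on *Rpl23a-ps3*.

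**Figure D2:**
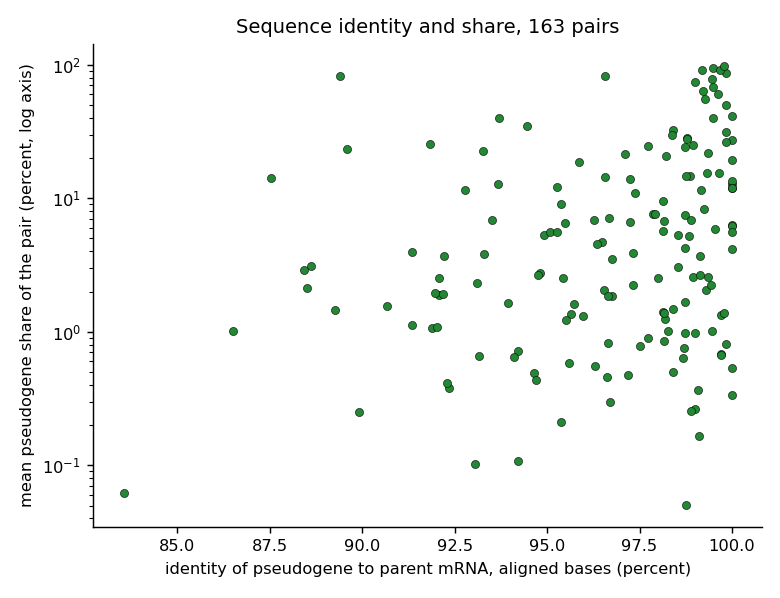
Identity of each pseudogene to its parent's mRNA over the aligned bases (x axis, percent) and its mean share of the reads of the pair over 6 libraries (y axis, percent, logarithmic), 163 pairs. Shares from under 1% to over 90% are found at identities above 97.5%, and the correlation is weak (Spearman's rho 0.28).

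The comparison of LS1 with Control was made on log2(normalized count + 1) with limma over all 19255 genes, so fold changes of low counts are understated. Of the 165 pseudogenes, 130 had a lower mean in LS1 (78.8%, where 49.4% of all genes tested did), with a median log2 fold change of -0.33 and a median standard error of 0.34. Over all genes tested the median was 0.0045. Both subunits had the same direction, with 74 of 97 Rpl copies (median -0.32) and 56 of 68 Rps copies (median -0.40) lower. The 82 parent and other ribosomal protein genes had a median of -0.30, and 69 of them were lower.

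Single pseudogenes seldom passed the test. An adjusted p under 0.05 was reached by 1 of 165 in the limma comparison, against a background of 0.0727% of all genes (0.0623% for lower), and by 0 of the 82 ribosomal protein genes, whose smallest adjusted p was 0.141. Before adjustment 26 pseudogenes had p under 0.05 (15.8%, background 12.9%), 25 of them lower in LS1 (background 5.89%) and 1 higher (background 7.03%). For the 82 genes this count was 22, all of them lower. DESeq2 on the recovered reads called 6 pseudogenes, all lower (background 2.4%, with 0.945% lower and 1.45% higher), and 7 of the 82 genes, all lower. It gave no adjusted p for 22 pseudogenes. All values in LS1 lay below all values in Control for 24 pseudogenes (14.5%, background 8.98%) and above them for 2 (1.21%, background 10.2%), *Rpl7a-ps9* and *Rpl10-ps4*. Leaving out Control replicate 1, 2 or 3 raised the pseudogenes that did not overlap in either direction from 26 to 46 (background 30.2%), 43 (26.6%) and 29 (27.7%). Leaving out LS1 replicate 1, 2 or 3 gave 54 (background 30.2%), 33 (28.3%) and 72 (34.6%), and 69 of the 72 were lower.

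The lower level was not equal among the LS1 mice. Relative to the mean of Control, the median pseudogene was at -0.05, -0.15 and 0.21 (log2) in Control replicates 1 to 3 and at -0.42, -0.50 and 0.0029 in LS1 replicates 1 to 3. The ribosomal protein genes were at -0.04, -0.14 and 0.17 and at -0.32, -0.40 and -0.05. LS1 replicate 3 was thus within the range of Control for the median pseudogene and the median gene, while Control replicate 3 was the highest library for 71 of the 165 pseudogenes. The median log2 fold change over the pseudogenes stayed between -0.21 and -0.48 with any 1 library left out.

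**Figure D3:**
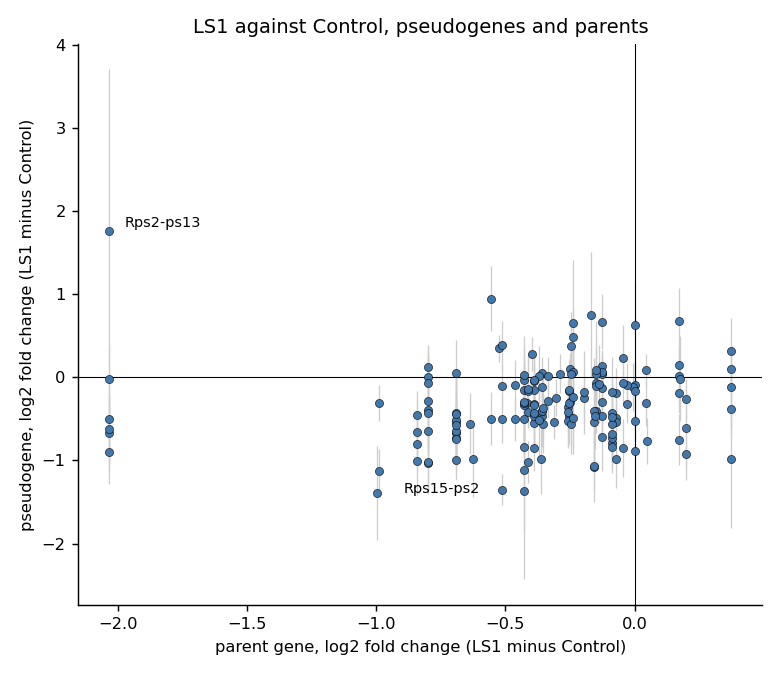
Log2 fold change (LS1 minus Control) of the parent gene on the x axis and of the pseudogene on the y axis for 164 pairs, with bars for the standard error of the pseudogene. Of 164 points, 115 lie in the lower left, where both are lower in LS1, and pseudogenes of the same parent form vertical columns.

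Pseudogene and parent were both lower in LS1 in 115 pairs and both higher in 7, while the pseudogene alone was lower in 15 and the parent alone in 27. Across the 164 pairs their fold changes were only weakly correlated (Spearman's rho 0.22, Pearson's r 0.10), with libraries and parents shared among the points. The summed count of pseudogene and parent had a median log2 fold change of -0.35. The sums of LS1 lay entirely below those of Control in 54 of 164 pairs (32.9%) and entirely above in 0, where this was so of 11.8% and 8.09% of the 136 other -ps pairs and, for single values, of 8.98% and 10.2% of all genes. A parent enters the sum of each of its pseudogenes. With each parent counted once, together with all its pseudogenes, the sums lay entirely below in 18 of 54 families and entirely above in 0.

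*Rps15-ps2* was the pseudogene that passed the test. It is a copy of *Rps15*, which encodes a protein of the small subunit, and keeps all 145 codons of its frame. Its normalized counts were 9482, 10114 and 12317 in Control and 5495, 3766 and 3432 in LS1. The groups did not overlap, with means of 10638 ± 1488 and 4231 ± 1108 (SD, n = 3). On the log2 scale this was a difference of -1.35 ± 0.18 (SE), with a limma adjusted p of 0.0288. *Rps15* itself had 23588, 22681 and 30225 in Control and 14816, 16858 and 22193 in LS1, which gave -0.51 ± 0.17 and an adjusted p of 0.280. The call was lost with edgeR on the recovered reads (adjusted p = 0.0722), with a replicate block (0.0836) and without any single library other than LS1 replicate 1 or 3 (0.0785 to 0.147). Over all alternatives the difference lay between -1.22 and -1.56.

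Other copies were called by DESeq2 alone or with a library left out, and are named here after their values were seen. DESeq2 also called *Rpl28-ps1* (log2 fold change -1.17, adjusted p = 0.00203), *Rpsa-ps10* (-1.18, 0.00744), *Rps6-ps3* (-1.04, 0.00838), *Rpl31-ps8* (-0.97, 0.0119) and *Rpsa-ps9* (-1.17, 0.0172). Without LS1 replicate 1, limma called *Rps12-ps10*, *Rpl14-ps1*, *Rpl10-ps3* and *Rpl31-ps8* beside *Rps15-ps2*, 5 of 165 pseudogenes where it called 48 of all genes (0.249%). Without LS1 replicate 3 it called *Rpl17-ps10* beside *Rps15-ps2*, 2 of 165 where it called 325 of all genes (1.69%). All of these were lower in LS1.

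*Rpsa-ps10* (chr3:150072658-150073542, minus strand) had the highest mean of all pseudogenes, 10054. It copies *Rpsa*, whose protein is part of the small subunit and also known as a laminin receptor, with 6 differing bases and a full frame of 295 codons. Its counts were 7497, 11834 and 22424 in Control and 6981, 5469 and 6121 in LS1, so the groups did not overlap but the Control mice differed widely among themselves. The log2 difference was -1.03 ± 0.38 (SE; limma adjusted p = 0.333). *Rpsa* had 53333, 41328 and 125682 in Control and 45106, 31594 and 36955 in LS1, and shared the high value of Control replicate 3.

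Most of the other pseudogenes with the highest counts were lower in LS1, while *Rps4x-ps*, *Rpl10a-ps1* and *Rpl23a-ps3* (log2 fold change 0.49) were higher. *Rpl13a-ps1*, with 29 differing bases and a full frame, had 7329, 7173 and 12790.5 in Control and 8033, 2585 and 4249 in LS1. Its log2 difference was -0.98 (limma adjusted p = 0.450). *Rps4x-ps*, a copy with a broken frame of the X-linked *Rps4x*, had 7843, 5611 and 5209.5 in Control and 7082, 8136 and 8217 in LS1. Its log2 difference was 0.35 ± 0.16 (SE; limma adjusted p = 0.401) beside -0.53 ± 0.15 (0.238) for *Rps4x*. Values of the groups overlapped for both copies. *Rpl3-ps1* (log2 fold change -0.28), *Rpl17-ps8* (-0.54), *Rpl39-ps* (-0.07) and *Rpl10a-ps1* (0.06) also had overlapping groups. These 4 values depended on the libraries used to different degrees, most of all for *Rpl17-ps8*. With 1 library left out they ran from -0.52 to -0.04 for *Rpl3-ps1* (the ends without LS1 replicate 3 and 1) and from -1.12 to -0.12 for *Rpl17-ps8* (without LS1 replicate 1 and 3). *Rpl39-ps* (-0.23 to 0.04) and *Rpl10a-ps1* (-0.03 to 0.12) changed sign.

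The share of the pseudogene in its pair does not depend on the scaling of the libraries. The median difference, LS1 minus Control, was 0.019 percentage points over 164 pairs. The shares of the groups did not overlap in 19 pairs (11.6%), 9 higher and 10 lower in LS1, where 14.0% of the 136 other -ps pairs did not overlap, 11 higher (8.09%) and 8 lower (5.88%). Exact permutation tests with 3 against 3 cannot go below p = 0.1, which each of these pairs reached. The 95% Wilson intervals of the shares in the pairs named below reached at most 4.57 percentage points from the share and cover counting error only. Leaving out Control replicate 1, 2 or 3 raised the number of pairs to 39, 26 and 27. These were 23.8%, 15.9% and 16.5% of the pairs, against 30.1%, 21.3% and 17.6% of the other pairs. Leaving out LS1 replicate 1, 2 or 3 gave 66, 27 and 34. These were 40.2%, 16.5% and 20.7%, against 30.1%, 21.3% and 23.5% of the other pairs. Of the 66, 31 were lower in LS1 and 35 higher.

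**Figure D4:**
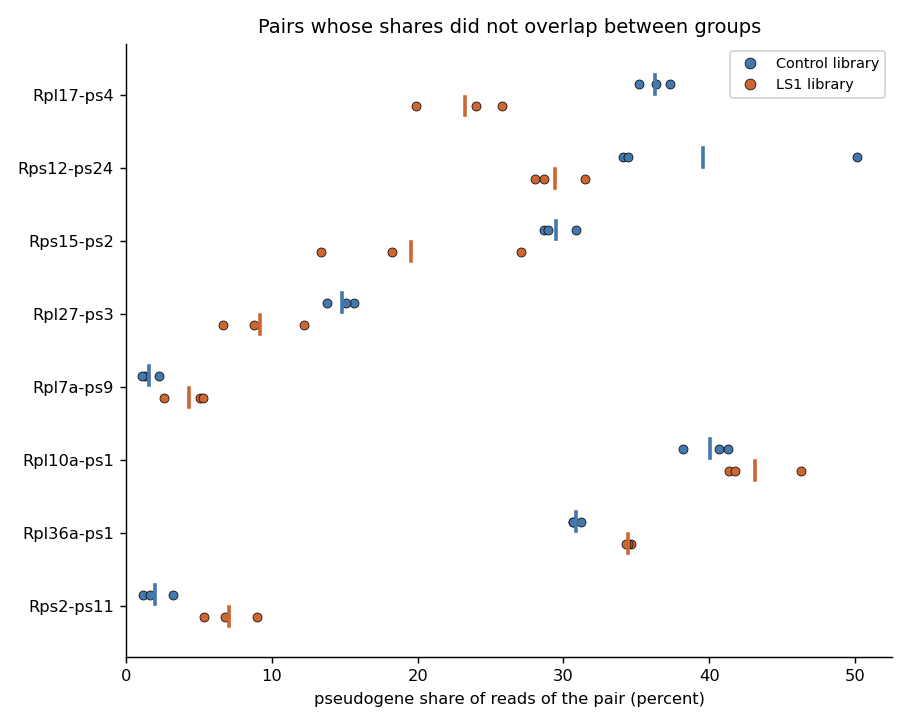
Share of the pseudogene in the reads of the pair (x axis, percent) in each library, for the 8 pairs with the largest difference among those whose groups did not overlap. Points are libraries and vertical bars the group means, and the order from top to bottom runs from the most negative difference, LS1 minus Control (*Rpl17-ps4*), to the most positive (*Rps2-ps11*).

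The shares that were lower in LS1 were led by *Rpl17-ps4*. It made up 36.3%, 37.3% and 35.2% of its pair in Control and 24.0%, 19.9% and 25.8% in LS1. Its counts were 171, 193 and 263 against 144, 68.7 and 93.3, while *Rpl17* had overlapping groups. *Rps12-ps24* followed with 34.1%, 34.5% and 50.1% against 28.0%, 28.6% and 31.5%. *Rps15-ps2* had 28.7%, 30.8% and 29.0% against 27.1%, 18.3% and 13.4%, and the 3 LS1 mice differed far more among themselves than the Control mice. *Rpl27-ps3*, which equals *Rpl27* at every base, went from 15.7%, 15.1% and 13.7% to 12.2%, 6.61% and 8.79%. With all pseudogenes of the parent in the denominator, the difference for *Rpl17-ps4* was -1.07 percentage points in place of -13.1, and that for *Rps12-ps24* was 0.020 in place of -10.2. Without Control replicate 3 the difference for *Rps12-ps24* in its own pair was -4.88.

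*Rps6-ps3* also had a lower share in LS1. Its sequence is shown because it differs from the parent at few places, so that 49.9% of its windows of 50 bases occurred in the parent and 30.5% in no other gene. It differs from *Rps6* at 11 bases, including C64T, A83G, G112A and C119T in the window at chr9:53690165-53690224 (minus strand).
Rps6: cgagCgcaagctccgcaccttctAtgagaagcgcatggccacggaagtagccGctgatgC
Rps6-ps3: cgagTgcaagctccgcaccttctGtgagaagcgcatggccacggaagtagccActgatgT

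*Rps6-ps3* lies in an intron of *Rab39* on the same strand and keeps the full frame of *Rps6*, whose protein is phosphorylated downstream of mTOR. Its counts were 391, 263 and 323 in Control and 163, 132 and 185 in LS1, and its share went from 4.39%, 3.28% and 3.30% to 2.10%, 2.58% and 2.58%. *Rab39* had a log2 fold change of 0.56, the opposite direction to that of the copy inside it, with an adjusted p of 0.458 from limma.

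Of the 9 pairs with a higher share in LS1, *Rps2-ps11* had the largest difference. This copy, in an intron of *Usp4* on the opposite strand, had overlapping levels (53.0 ± 26.3 and 49.3 ± 11.4 counts, SD, n = 3), and its share of 1.13%, 1.60% and 3.19% against 5.34%, 6.80% and 8.98% stood beside a lower *Rps2* count in LS1, described below. With all pseudogenes of *Rps2* in the denominator its difference was 0.16 in place of 5.06 percentage points. *Rpl36a-ps1*, listed as protein-coding, had the most even shares, with 30.7%, 30.7% and 31.2% in Control and 34.6%, 34.5% and 34.3% in LS1. *Rpl10a-ps1* went from 41.3%, 40.7% and 38.2% to 46.3%, 41.4% and 41.8% with no base to tell it from *Rpl10a*, and its difference of 3.09 percentage points was 1.5 without LS1 replicate 1. *Rpl3-ps2* (4.58% ± 0.273 and 5.80% ± 0.686, SD, n = 3) and *Rpl18-ps1* (4.14% ± 0.257 and 5.22% ± 0.660) had smaller differences. The value for *Rpl18-ps1*, in an intron of *Ctla4*, is set against *Rpl18* as its symbol has it, although their sequences did not align.

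*Rpl7a-ps9* had higher counts in every LS1 library than in any Control library, and its sequence stands well apart from that of its parent. It is 88.4% identical to *Rpl7a*, its longest reading frame has 153 codons against 266, and 84.9% of its windows of 50 bases occurred in no other gene. It lies in an intron of *Cpeb1* on the opposite strand, and 11 bases differ in the window at chr7:81445956-81446015 (plus strand).
Rpl7a: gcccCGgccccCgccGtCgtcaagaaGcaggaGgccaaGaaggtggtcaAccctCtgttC
Rpl7a-ps9: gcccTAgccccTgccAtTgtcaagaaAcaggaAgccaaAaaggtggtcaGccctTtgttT

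The counts of *Rpl7a-ps9* were low, at 55.5, 27.7 and 31.0 in Control and 58.1, 62.7 and 97.9 in LS1, and the lowest LS1 library barely exceeded the highest Control library. The log2 difference was 0.95 ± 0.39 (SE; limma adjusted p = 0.339), while *Rpl7a* had -0.56 ± 0.22 (0.318). Its share was 2.27%, 1.25% and 1.10% in Control and 2.57%, 5.05% and 5.29% in LS1.

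The *Rps2* family had the widest spread of shares among mice of the same group. *Rps2* encodes a protein of the small subunit near the entry of the mRNA. Its own gene had 3524, 5099 and 1074 counts in Control and 759, 585 and 633 in LS1, a log2 difference of -2.03 ± 0.58 (SE; limma adjusted p = 0.285), the lowest of the 82 genes. *Rps2-ps13* on X had 2645, 64.3 and 5585 in Control and 3264, 3818 and 3002 in LS1. Control replicate 2 thus had 64.3 counts of the copy and the highest value of the parent, Control replicate 3 had the highest value of the copy and the lowest of the parent among the Control mice, and the LS1 mice were all on the side of Control replicate 3.

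As a share of its pair, *Rps2-ps13* ran from 1.25% to 83.9% among the Control mice (42.9%, 1.25% and 83.9%) and from 81.1% to 86.7% in LS1. The log2 fold change of 1.76 had a standard error of 1.94 and the groups overlapped. *Rps2-ps10*, in an intron of *Pde6a* on the opposite strand and listed as transcribed, had 6670.4, 6302 and 12584 in Control and 5549.7, 2654 and 5593 in LS1. All its LS1 values lay below all its Control values, with a log2 difference of -0.89 (limma adjusted p = 0.398). Both copies keep all 293 codons of the parent. Added together, *Rps2* and its 6 pseudogenes had 13029, 11698 and 19514 counts in Control and 9725, 7201 and 9425 in LS1, a log2 difference of -0.72 (exact two-sided permutation test, p = 0.1, the smallest possible). With all pseudogenes of the family in the denominator, the difference in share of *Rps2-ps10* turned from 15.6 to -5.50 percentage points, with overlapping groups under both.

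**Figure D5:**
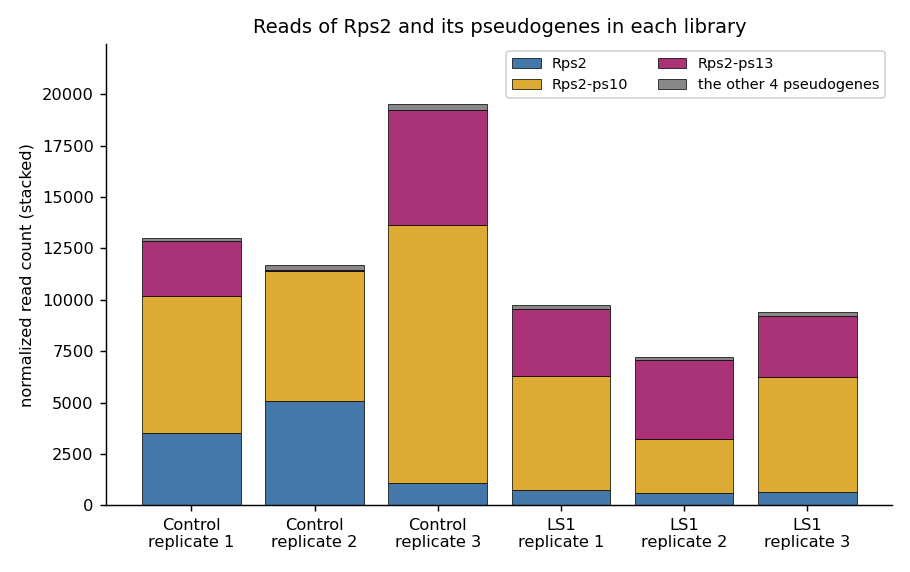
Normalized read counts of *Rps2*, *Rps2-ps10*, *Rps2-ps13* and the other 4 pseudogenes of *Rps2*, stacked for each of the 6 libraries. *Rps2-ps13* is nearly missing in Control replicate 2 (64.3), where *Rps2* is highest (5099), and the total is 11698 to 19514 in Control and 7201 to 9725 in LS1.

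By position, 55 of the 165 pseudogenes overlapped another annotated gene, and 43 lay in an intron of a protein-coding gene. For these, 14 had a host on the same strand and 30 on the opposite strand, with *Rps12-ps9* counted under both (*Gm20388* and *Chmp1a*). *Rpl17-ps8* lies in an intron of *Heph* on the same strand, and *Rpl19-ps11* overlaps the miRNA gene *Gm27288*, which had 0 reads in each library. An exon of another gene was overlapped by 6 pseudogenes, among them *Rps12-ps4* and *Nphs1* on opposite strands. Without a stated strand setting, reads of such copies and of genes on the other strand cannot be told apart. None of the named host genes with a copy in an intron passed the test, where they could be tested. This does not cover *Nphs1*.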

How the data were processed

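The authors mapped paired reads of polyadenylated RNA to GRCm38 (Ensembl release 84) with HISAT2 2.0.2, counted them with featureCounts 1.4.6 and analysed them with DESeq2. The deposited signal per gene is the read count divided by 1 DESeq2 size factor per library. Reads were recovered by division, and 100% of values came out whole within 0.01 reads. 0 columns were left unused. Each pseudogene was compared with the gene named before -ps as a share of the summed reads, with exact two-sided permutation tests. Genes with a mean value of 20 or more were tested with limma 3.58.1 (R 4.3.3) on log2(value + 1), with a mean-variance trend and robust moderation, Benjamini-Hochberg adjustment and a threshold of 0.05. The alternatives used edgeR 4.0.16 and DESeq2 1.42.0. The limma, edgeR and DESeq2 steps were tested on simulated data. Symbols (99.1% of identifiers) and sequences came from GENCODE M21 on GRCm38. Parents were represented by the shortest mRNA with the longest consensus coding sequence, and alignments under 100 bases were not used. Reads from identical stretches of a pseudogene and its parent cannot be told apart, and how such reads were assigned is not given in the sources used here.

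The members, lists and alternatives were chosen with earlier results of these data known. Members were named if called, among the 12 highest by mean, or among the 12 largest differences in share with groups that do not overlap, each with its parent and host gene, and some items under this rule are not reported here. The libraries were taken as separate mice, as the methods of the study give them.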

Additional observations from a re-analysis of the deposited data

How the results depend on the processing

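The direction of the median pseudogene, of the median ribosomal protein gene and of the median summed pair did not change under any alternative run. The counts of calls did. Over all genes, limma called 14, edgeR 7 with either scaling, DESeq2 462, limma without the filter 45, and limma with a library left out 5 to 325. Of the pseudogenes, limma called 1, edgeR 0 with either scaling and DESeq2 6, and limma with a library left out 0 to 5, with 5 (of 48 genes) without LS1 replicate 1 and 2 (of 325) without LS1 replicate 3. Of the ribosomal protein genes, limma called 0, DESeq2 7, and limma with a library left out 0 to 4. The pairs with shares that do not overlap numbered 19, and 26 to 66 with a library left out. The titles share first letters between groups, but the deviations of same-letter libraries from their group means correlated at only 0.056, 0.023 and 0.23, so the letters were not taken as pairs. With the letter as a replicate block, 0 pseudogenes and 12 genes in all were called. The median difference in share lay between -0.050 and 0.040 percentage points with a library left out. The cause of these differences was not tested, except that a group of 2 libraries overlaps another less easily.

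Under a denominator with every pseudogene of the parent, the difference in share was -1.07 percentage points for *Rpl17-ps4*, 0.020 for *Rps12-ps24*, 0.16 for *Rps2-ps11* and 2.58 for *Rpl36a-ps1*. Shares of copies with few bases of their own depend on how reads with several placements were counted, which is not given in the sources used here, and 3 mice per group limit every p here.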
